A study of Mus musculus with 8 samples.

Results

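The genes described here are 34 genes of the lysosome and of autophagy, taken by symbol from a list of hydrolases, lysosomal membrane proteins, V-ATPase subunits, their transcription factors and the core autophagy machinery. All 34 were among the 55665 gene rows measured, and all 34 had at least 17 counts in each of the 8 libraries and entered the test. The cells were mouse nTreg cells, the naturally arising regulatory T cells that express the transcription factor Foxp3, sorted as CD4+GFP+ from spleen and lymph nodes and then cultured. Every library came from RosaCas9/+ Foxp3gfp cells, which carry 1 Cas9 allele at the Rosa locus and a GFP reporter of Foxp3, so the sgNC cells carried Cas9 and the reporter too. The 4 groups of 2 libraries each were the guide sgFoxp3 with 3 h of anti-CD3 and anti-CD28 stimulation (TCR stimulation), the control guide sgNC after the same 3 h of stimulation, sgFoxp3 with mock treatment in DPBS (0 h), and sgNC with mock treatment (0 h). The labels do not state the age of the mice, the number of guides per gene, the length of the culture, or whether the replicates were separate cultures or animals, so p-values cover only how these libraries vary, which can be technical.

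Lysosomes break down proteins, lipids and sugars with acid hydrolases, in an interior that the proton-pumping V-ATPase keeps acidic. Autophagy delivers cytoplasm to them: the Ulk kinases and the Becn1 complex start the membrane, the Atg conjugation enzymes attach ATG8 proteins (the LC3 and GABARAP families) to it, and receptors such as Sqstm1 bring cargo. Tfeb and Tfe3 are transcription factors that bind E-box-type elements in the promoters of many lysosomal genes, and T cells use autophagy and lysosomal breakdown in activation and survival.

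RefSeq promoter windows (GRCm38.p6, 250 bases before to 50 after each annotated start) were at hand for 27 of the 34 genes, and the sites below show the E-box-type letters that Tfeb and Tfe3 are known to bind. The letters CACGTG, which read the same on both strands, were in the windows of 9 of 27 members (33.3%), against 8.09% of the 27025 genes with a window and 11.4% of the 10881 tested genes with one. The longer run TCACGTGA, which contains CACGTG, was in 5 of 27 members (18.5%), against 1.12% of all genes with a window and 2.10% of the tested ones. A match describes the letters only, and binding was not measured. The 9 genes were Lamp1, Ctsa, Ctsd, Ctsl, Gla, Mcoln1, Atp6v0d1, Atg5 and Atg7. Capitals mark TCACGTGA in Ctsa, Ctsd, Gla and Mcoln1, and CACGTG in Lamp1 and Ctsl. Lamp1 had 4 copies within the 81 bases before its start, and Ctsa and Gla each had 2 copies of the longer run, of which 1 is printed for Ctsa. The sites of Gla overlap an annotated exon of Hnrnph2, and those printed for Ctsa, Ctsd, Ctsl and Mcoln1 overlap annotated exons of the gene itself.
Lamp1 (chr8:13159080-13159160, + strand): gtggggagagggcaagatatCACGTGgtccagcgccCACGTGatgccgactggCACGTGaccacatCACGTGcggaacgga
Ctsa (chr2:164833749-164833772, + strand): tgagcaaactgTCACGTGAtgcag
Ctsd (chr7:142387908-142387937, - strand): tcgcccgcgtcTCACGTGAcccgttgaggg
Mcoln1 (chr8:3500462-3500491, + strand): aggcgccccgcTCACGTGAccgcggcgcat
Gla, nearer site (chrX:134601182-134601211, - strand): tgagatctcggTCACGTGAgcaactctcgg
Gla, farther site (chrX:134601215-134601244, - strand): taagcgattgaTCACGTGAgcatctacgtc
Ctsl (chr13:64370739-64370768, - strand): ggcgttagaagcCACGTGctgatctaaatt

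Foxp3, the targeted gene, was measured first as a check of the labels. It had 76.1 and 71.8 CPM in sgFoxp3 cells and 679 and 673 CPM in sgNC cells at 3 h, and 87.6 and 88.5 CPM in sgFoxp3 cells and 764 and 776 CPM in sgNC cells at 0 h. CPM here is the usual count scaled by library size, with TMM factors between libraries. The guide effect on Foxp3 was -3.19 ± 0.044 at 3 h and -3.13 ± 0.043 at 0 h (log2, sgFoxp3 over sgNC cells, ± SE). Libraries held 38729009 to 94807362 expected counts. Summed over T cell markers (5 genes), the libraries had 1691 to 2337 TPM, and over macrophage and monocyte markers (9 genes) 3.95 to 6.43 TPM, with Csf1r at 0 in all 4 libraries at 0 h. The Treg markers (4 genes, Foxp3 among them) summed to 1139 to 1177 TPM in sgFoxp3 cells and 2913 to 3034 TPM in sgNC cells at 3 h, and to 557.8 to 578 TPM in sgFoxp3 cells and 1845 to 1850 TPM in sgNC cells at 0 h. The dendritic cell list (8 genes) had Siglech at 0 throughout, and Cd74 reached 87.6 TPM, Zbtb46 23 TPM and H2-Ab1 7.89 TPM. Its sum moved with both factors. It summed to 43.7 to 44.1 TPM in sgFoxp3 cells and 115.4 to 116.6 TPM in sgNC cells at 3 h, and to 13.1 to 13.2 TPM in sgFoxp3 cells and 24.8 to 28.1 TPM in sgNC cells at 0 h. By gene (adjusted p below 0.05, edgeR), 4 were lower and Itgax higher in sgFoxp3 cells at 3 h. There 3 were lower and H2-Ab1 higher at 0 h. After stimulation 3 rose and H2-Ab1 fell in sgFoxp3 cells, and 5 rose and 0 fell in sgNC cells. The stromal list (3 genes, mostly Pecam1) was 17.3 TPM in sgFoxp3 cells and 14.3 to 15.1 TPM in sgNC cells at 3 h, and 67.9 to 68.6 TPM in sgFoxp3 cells and 127.8 to 137 TPM in sgNC cells at 0 h. B cell, NK cell and CD8 T cell lists stayed at or under 9.58 TPM. The part of these other markers in the results below was not tested, and in bulk RNA fewer cells of a type and less RNA per cell cannot be told apart.

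In length-corrected levels, the 34 genes spanned from Wipi1, under 1 TPM at 3 h, to Sqstm1, Ctss and Psap near 300 TPM in sgNC cells at 0 h. The sum over the 34 genes was 1638 and 1618 TPM in sgFoxp3 cells and 2014 and 2008 TPM in sgNC cells at 3 h. At 0 h the sum was 2743 and 2737 TPM in sgFoxp3 cells and 3328 and 3375 TPM in sgNC cells. The sum was lower in all 4 stimulated libraries than in any mock-treated library, and lower in sgFoxp3 cells at each time. The share of all expected counts on the 34 genes, without TMM scaling, was lower in sgFoxp3 cells too. At 3 h it was 0.203% and 0.204%, against 0.228% and 0.231% in sgNC cells. At 0 h it was 0.369% and 0.367%, against 0.405% and 0.407% in sgNC cells. On log2(TPM + 1) the median guide effect over all tested genes was also negative, -0.12 at 3 h and -0.15 at 0 h. On TMM-scaled counts the median guide effect of the 34 genes was 0.05 at 3 h and -0.01 at 0 h. That median counts each gene alike, while the sums follow the highest genes. In sgFoxp3 cells at 3 h the highest levels were those of Sqstm1 (185 and 179 TPM), Becn1 (175 and 172 TPM) and Gabarap (156 and 147 TPM), with no overlap between neighbours. In sgNC cells at 3 h, Ctsz stood highest at 281 and 281 TPM, above Gabarap at 193 and 189 TPM. In sgFoxp3 cells at 0 h, Psap led at 275 and 273 TPM, and Gabarap (223 and 226 TPM) and Ctsd (226 and 221 TPM) overlapped below it. In sgNC cells at 0 h, Ctss (302 and 302 TPM), Psap (296 and 306 TPM) and Sqstm1 (289 and 313 TPM) overlapped at the top. Of the 33 pairs of neighbours in each order, 11 overlapped in sgFoxp3 cells and 8 in sgNC cells at 3 h, and 6 in sgFoxp3 cells and 7 in sgNC cells at 0 h. Gla and Wipi1 were the lowest members in every group.

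After 3 h of TCR stimulation most of the 34 genes fell, with either guide. In sgFoxp3 cells 22 fell and 10 rose, and Lamp1 and Sqstm1 missed the threshold; in sgNC cells 23 fell and 11 rose. The same 22 fell and the same 10 rose with both guides. In sgFoxp3 cells the largest falls were those of Wipi1, Psap, the Ulk kinases and Ctsd, and the cathepsins Ctsl and Ctsz, the ATG8 gene Gabarapl1 and the conjugation gene Atg16l1 led the rises. In sgNC cells Wipi1, Ulk2, Tfeb and Ctsd fell most, and Ctsz rose most. Passing means an adjusted p below 0.05 in edgeR's quasi-likelihood F-test, Benjamini-Hochberg adjusted over 16642 genes. In sgFoxp3 cells 64.7% of the members fell and 29.4% rose, against 44.5% and 40.8% of all tested genes. In sgNC cells 67.6% fell and 32.4% rose, against 40.9% and 40.9% of all tested genes. Falls of at least 2-fold were called for 12 members (35.3%) in sgFoxp3 cells, against 28.4% of all genes, and for 13 (38.2%) in sgNC cells, against 24.2%. Rises of at least 2-fold were called for 4 members in sgFoxp3 cells (11.8%, against 22.6% of all genes) and for 1 in sgNC cells (2.94%, against 21.8%). The median log2 change of the members was -0.67 in sgFoxp3 cells and -0.62 in sgNC cells, beside -0.07 in sgFoxp3 cells and -0.01 in sgNC cells over all tested genes. The authors' TPM scale put the median of all genes at -0.18 in sgFoxp3 cells and -0.20 in sgNC cells. On it 6 members rather than 11 rose in sgNC cells. Of all calls, 38.7% rather than 47.8% were rises in sgFoxp3 cells and 37.3% rather than 50% in sgNC cells.

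**Figure D1:**
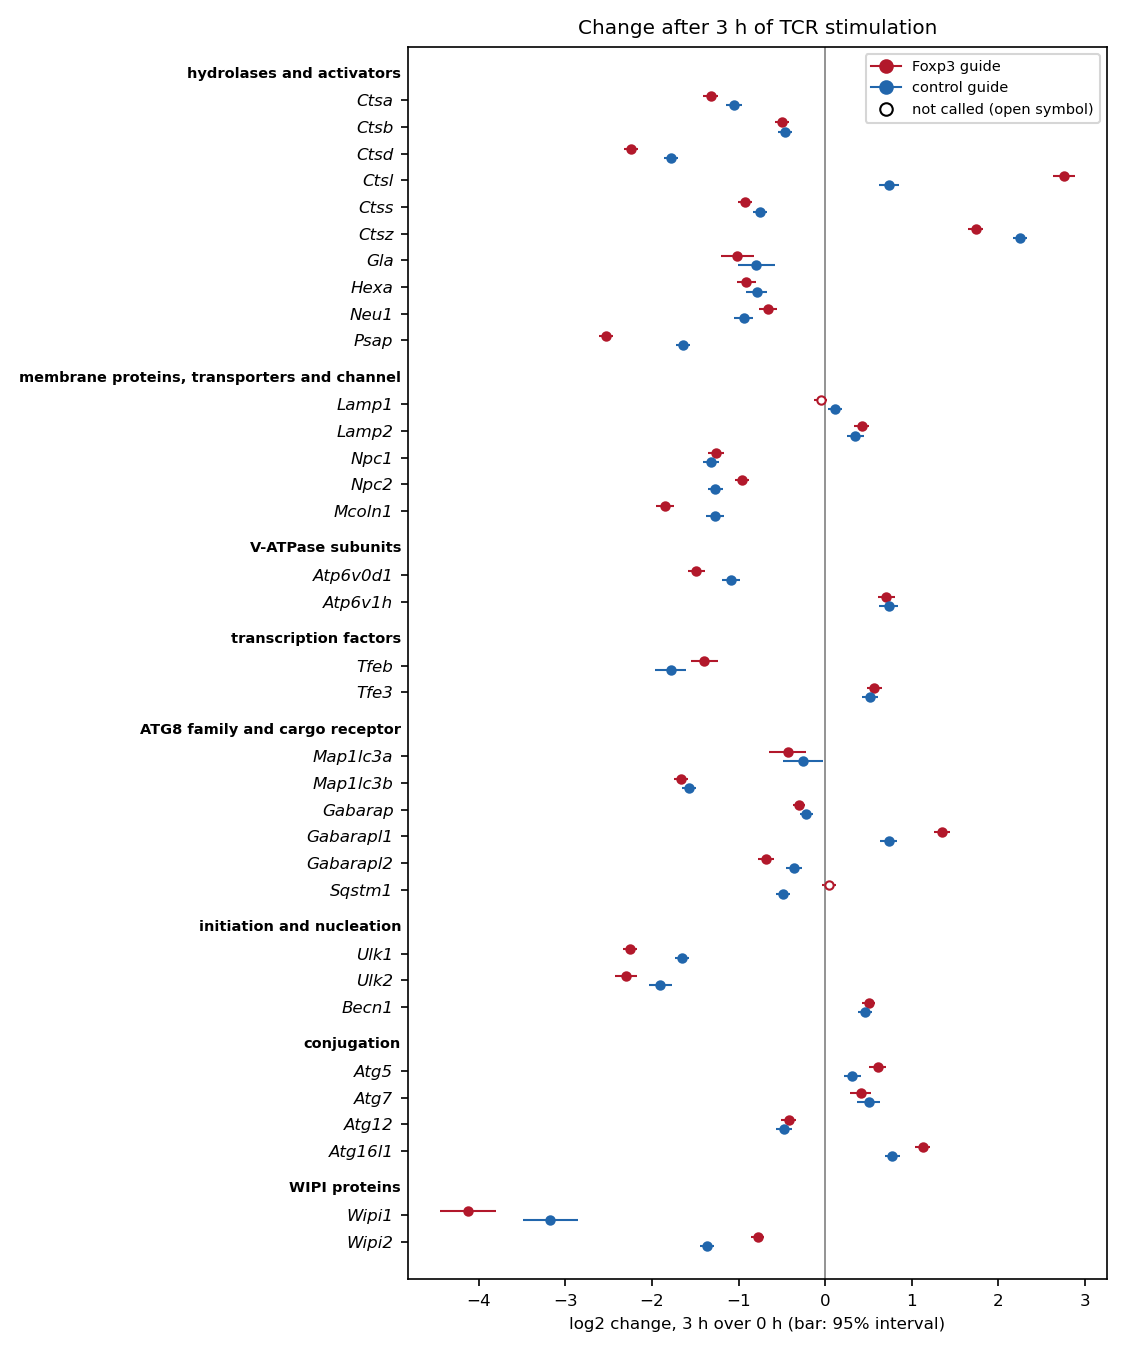
Log2 change after 3 h of TCR stimulation (3 h over 0 h, x axis) for each of the 34 genes, by role, in sgFoxp3 cells (Foxp3 guide, red) and sgNC cells (control guide, blue); bars are 95% intervals and open symbols did not pass the test. Of the 34 genes, 22 lie left of 0 and passed with both guides, and in sgFoxp3 cells Ctsl, Ctsz, Gabarapl1 and Atg16l1 lie farthest right.

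Among the 10 hydrolases and activators, 8 fell and Ctsl and Ctsz rose, with each guide. Psap, the precursor of the saposins that help degrade sphingolipids, had 79.8 and 79.2 CPM (sgFoxp3) and 134 and 134 CPM (sgNC) at 3 h, against 459.6 and 455 CPM (sgFoxp3) and 412 and 423 CPM (sgNC) at 0 h. Each stimulated library was below each mock-treated one, and the log2 change was -2.52 ± 0.040 in sgFoxp3 cells and -1.64 ± 0.038 in sgNC cells. Ctsd, the aspartic protease cathepsin D, had 57.7 and 61.1 CPM (sgFoxp3) and 51.5 and 51.4 CPM (sgNC) at 3 h, against 285 and 279 CPM (sgFoxp3) and 176 and 178 CPM (sgNC) at 0 h. It changed by -2.25 ± 0.039 in sgFoxp3 cells and -1.78 ± 0.041 in sgNC cells, again with no overlap between times. Ctsa, a carboxypeptidase that also protects other lysosomal enzymes, had 45.7 and 49.7 CPM (sgFoxp3) and 44.6 and 45 CPM (sgNC) at 3 h, against 121 and 118 CPM (sgFoxp3) and 91.2 and 94.8 CPM (sgNC) at 0 h. Its log2 change was -1.32 ± 0.043 in sgFoxp3 cells and -1.05 ± 0.045 in sgNC cells. The other 4 of these falls given in full were smaller. Ctss, a cysteine protease that trims the class II invariant chain in antigen-presenting cells, had 65.5 and 70.8 CPM (sgFoxp3) and 117 and 118 CPM (sgNC) at 3 h, against 131 and 129 CPM (sgFoxp3) and 197 and 197 CPM (sgNC) at 0 h. It changed by -0.93 ± 0.039 in sgFoxp3 cells and -0.75 ± 0.039 in sgNC cells, and its sgFoxp3 libraries were the lower ones at each time. Gla, Hexa and Neu1 remove sugars from glycolipids and glycoproteins.

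Gla had 4.08 and 3.81 CPM (sgFoxp3) and 3.8 and 3.87 CPM (sgNC) at 3 h, against 7.62 and 8.25 CPM (sgFoxp3) and 6.75 and 6.57 CPM (sgNC) at 0 h, with log2 changes of -1.01 ± 0.092 (sgFoxp3) and -0.80 ± 0.10 (sgNC). Hexa had 17.3 and 17.9 CPM (sgFoxp3) and 13.9 and 14.4 CPM (sgNC) at 3 h, against 33.4 and 33 CPM (sgFoxp3) and 23.6 and 25.4 CPM (sgNC) at 0 h, with changes of -0.91 ± 0.052 in sgFoxp3 cells and -0.79 ± 0.059 in sgNC cells. Neu1 had 29 and 29.2 CPM (sgFoxp3) and 24.2 and 26.6 CPM (sgNC) at 3 h, against 47.2 and 44.6 CPM (sgFoxp3) and 48.3 and 49.1 CPM (sgNC) at 0 h, with changes of -0.66 ± 0.050 in sgFoxp3 cells and -0.94 ± 0.054 in sgNC cells. All 3 were lower in every stimulated library. Ctsb, another cysteine protease, changed by -0.50 in sgFoxp3 cells and -0.47 in sgNC cells and completes the 8 falls. The rises had different patterns. Ctsl, the cysteine protease cathepsin L, had 41.3 and 42.8 CPM (sgFoxp3) and 29.9 and 32.9 CPM (sgNC) at 3 h, against 6.34 and 6.08 CPM (sgFoxp3) and 18.4 and 19.2 CPM (sgNC) at 0 h. Its sgFoxp3 libraries were the lowest of all at 0 h and the highest at 3 h, a rise of 6.78-fold in sgFoxp3 cells (log2 2.76 ± 0.061) and 1.67-fold in sgNC cells (0.74 ± 0.058). Ctsz, the carboxypeptidase cathepsin Z, had 147 and 153 CPM (sgFoxp3) and 253 and 258 CPM (sgNC) at 3 h, against 45.8 and 44.2 CPM (sgFoxp3) and 53.4 and 54.3 CPM (sgNC) at 0 h. It rose 3.33-fold in sgFoxp3 cells (1.74 ± 0.039) and 4.75-fold in sgNC cells (2.25 ± 0.040), and its sgNC libraries were the highest at 3 h. The largest adjusted p among the hydrolases given in full was 2.24e-10 in sgFoxp3 cells and 1.76e-07 in sgNC cells (edgeR).

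Of the 5 lysosomal membrane and transport proteins, the cholesterol exporters and the calcium channel fell and the Lamp glycoproteins moved little. Npc1, which moves cholesterol out of the lysosome, had 46.6 and 44.7 CPM (sgFoxp3) and 67 and 62.4 CPM (sgNC) at 3 h, against 109 and 109 CPM (sgFoxp3) and 156 and 167 CPM (sgNC) at 0 h. It fell with each guide, with log2 changes of -1.26 ± 0.044 (sgFoxp3) and -1.32 ± 0.044 (sgNC). Npc2, its soluble partner that hands cholesterol to it, had 144 and 153 CPM (sgFoxp3) and 129 and 132 CPM (sgNC) at 3 h, against 290.5 and 288 CPM (sgFoxp3) and 316 and 312 CPM (sgNC) at 0 h. Its changes were -0.96 ± 0.039 in sgFoxp3 cells and -1.27 ± 0.040 in sgNC cells. Mcoln1, the lysosomal calcium channel TRPML1, had 15.2 and 14.5 CPM (sgFoxp3) and 21.8 and 21.2 CPM (sgNC) at 3 h, against 52.7 and 54 CPM (sgFoxp3) and 53 and 51.2 CPM (sgNC) at 0 h. It changed by -1.84 ± 0.050 in sgFoxp3 cells and -1.27 ± 0.051 in sgNC cells, and the sgFoxp3 libraries at 3 h were the lowest of the 8. The largest adjusted p of these 3 was 2.12e-17 in sgFoxp3 cells and 1.91e-17 in sgNC cells. Lamp1 had 155 and 157 CPM (sgFoxp3) and 213 and 214 CPM (sgNC) at 3 h, against 161 and 163 CPM (sgFoxp3) and 192 and 203 CPM (sgNC) at 0 h, and passed only in sgNC cells (0.11; -0.05 in sgFoxp3 cells), with a change whose sign turned on the TPM scale and under upper-quartile scaling. Lamp2 changed by 0.42 in sgFoxp3 cells and 0.35 in sgNC cells, and both signs turned on the TPM scale.

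The pair of V-ATPase subunits moved apart. Atp6v0d1, which joins the membrane part of the pump to its stalk, had 21.8 and 21.3 CPM (sgFoxp3) and 24.7 and 25.4 CPM (sgNC) at 3 h, against 61 and 59.6 CPM (sgFoxp3) and 53 and 53.2 CPM (sgNC) at 0 h. It fell with each guide, with log2 changes of -1.49 ± 0.047 (sgFoxp3) and -1.09 ± 0.049 (sgNC). Atp6v1h, a regulatory subunit of the catalytic part, had 42.3 and 43.8 CPM (sgFoxp3) and 40.7 and 39.5 CPM (sgNC) at 3 h, against 25.5 and 27.2 CPM (sgFoxp3) and 24.3 and 23.9 CPM (sgNC) at 0 h. It rose, by 0.71 ± 0.048 in sgFoxp3 cells and 0.73 ± 0.052 in sgNC cells. For this pair the adjusted p was at most 9.37e-13 in sgFoxp3 cells and 2.52e-12 in sgNC cells.

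The 2 transcription factors also moved in opposite directions. Tfeb had 6.65 and 7.2 CPM (sgFoxp3) and 5 and 5.57 CPM (sgNC) at 3 h, against 19.1 and 17.5 CPM (sgFoxp3) and 17.4 and 18.9 CPM (sgNC) at 0 h. Every stimulated library was lower, with changes of -1.39 ± 0.074 in sgFoxp3 cells and -1.78 ± 0.086 in sgNC cells. Tfe3 had 63 and 63.3 CPM (sgFoxp3) and 67.6 and 68.6 CPM (sgNC) at 3 h, against 43.4 and 41.9 CPM (sgFoxp3) and 47.5 and 47.8 CPM (sgNC) at 0 h. Every stimulated library was higher, with changes of 0.57 ± 0.042 in sgFoxp3 cells and 0.52 ± 0.044 in sgNC cells. Their adjusted p was at most 5.0e-12 in sgFoxp3 cells and 7.47e-11 in sgNC cells. These are transcript levels, and Tfeb and Tfe3 are known to be controlled mainly through their place in the cell, which was not measured.

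Of the 9 members with CACGTG in the promoter window, 5 fell, 3 rose and 1 did not pass in sgFoxp3 cells, and 5 fell and 4 rose in sgNC cells. Their median log2 changes were -1.02 in sgFoxp3 cells and -0.80 in sgNC cells, beside -0.85 in sgFoxp3 cells and -0.86 in sgNC cells for the 18 members with a window and no CACGTG. Ctsl, with the site printed above, rose, as did Atg5 and Atg7, and Lamp1 passed only in sgNC cells, as a rise. Ctsa, Ctsd, Gla, Mcoln1 and Atp6v0d1, which all have the longer run TCACGTGA, fell. Of the 18 members without CACGTG, 13 fell and 4 rose in sgFoxp3 cells, and 14 fell and 4 rose in sgNC cells.

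Within the ATG8 family, Map1lc3b fell most and Gabarapl1 was the only one of the 5 to rise. Map1lc3b encodes LC3B, the most used marker of autophagosomes, and had 57.7 and 59.8 CPM (sgFoxp3) and 71.9 and 74.8 CPM (sgNC) at 3 h, against 188 and 184 CPM (sgFoxp3) and 221 and 217 CPM (sgNC) at 0 h. Its changes were -1.66 ± 0.038 in sgFoxp3 cells and -1.57 ± 0.039 in sgNC cells. Gabarapl1 had 99.7 and 104 CPM (sgFoxp3) and 66.8 and 70.4 CPM (sgNC) at 3 h, against 38.7 and 40.9 CPM (sgFoxp3) and 41.7 and 41 CPM (sgNC) at 0 h. It rose by 1.35 ± 0.044 in sgFoxp3 cells and 0.73 ± 0.047 in sgNC cells, and the sgFoxp3 libraries at 3 h were the highest. Gabarapl2 had 60.6 and 64.5 CPM (sgFoxp3) and 56.9 and 59.3 CPM (sgNC) at 3 h, against 102 and 99.6 CPM (sgFoxp3) and 76.4 and 72.9 CPM (sgNC) at 0 h. It changed by -0.68 ± 0.042 in sgFoxp3 cells and by a smaller -0.36 in sgNC cells. Map1lc3b and Gabarapl2 had fractional expected counts in all 8 libraries, so RSEM shared some of their reads with other genes and their levels are less certain. Map1lc3a and Gabarap changed by -0.43 and -0.30 in sgFoxp3 cells and by -0.25 and -0.22 in sgNC cells. Sqstm1, the ubiquitin-binding receptor p62 that is itself degraded by autophagy, had 241 and 243 CPM (sgFoxp3) and 190.0 and 196 CPM (sgNC) at 3 h, against 236 and 234 CPM (sgFoxp3) and 265 and 277 CPM (sgNC) at 0 h. It changed by -0.49 in sgNC cells and did not pass in sgFoxp3 cells (0.04). The largest adjusted p of those given in full was 1.2e-13 in sgFoxp3 cells and 3.01e-13 in sgNC cells.

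Both Ulk kinases, which start autophagosome formation, fell more than 3-fold, and Becn1 rose by less, with a call in sgNC cells that the TPM scale lost. Ulk1 had 29.6 and 29.6 CPM (sgFoxp3) and 41.4 and 40.8 CPM (sgNC) at 3 h, against 142 and 141 CPM (sgFoxp3) and 129.7 and 129 CPM (sgNC) at 0 h. It fell 4.77-fold in sgFoxp3 cells (log2 -2.25 ± 0.039) and 3.14-fold in sgNC cells (-1.65 ± 0.040). Ulk2 had 9.65 and 8.62 CPM (sgFoxp3) and 11.3 and 10.2 CPM (sgNC) at 3 h, against 43.2 and 45.7 CPM (sgFoxp3) and 40.0 and 40.3 CPM (sgNC) at 0 h. Its falls were 4.91-fold in sgFoxp3 cells (-2.30 ± 0.060) and 3.74-fold in sgNC cells (-1.90 ± 0.064), and neither kinase overlapped between times. Becn1, the lipid-kinase partner that nucleates the membrane, had 222 and 222 CPM (sgFoxp3) and 198 and 199.7 CPM (sgNC) at 3 h, against 156 and 157 CPM (sgFoxp3) and 149 and 140.4 CPM (sgNC) at 0 h. It rose by 0.50 ± 0.037 in sgFoxp3 cells and 0.46 in sgNC cells. On log2(TPM + 1) its changes were 0.16 in sgFoxp3 cells, which passed, and 0.09 in sgNC cells, which did not. The largest adjusted p (edgeR) was 5.24e-12 in sgFoxp3 cells, and 5.54e-19 for the Ulk kinases in sgNC cells. For Becn1 in sgNC cells it was 6.26e-11.

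The conjugation genes mostly rose, and Wipi1 and Wipi2 fell. Atg16l1, which places the conjugation complex on the membrane, had 113 and 109 CPM (sgFoxp3) and 98.8 and 97.7 CPM (sgNC) at 3 h, against 50.6 and 51.1 CPM (sgFoxp3) and 59.3 and 55.6 CPM (sgNC) at 0 h. It rose by 1.13 ± 0.041 in sgFoxp3 cells and 0.77 ± 0.042 in sgNC cells. Atg5, a subunit of the same complex, had 43.5 and 42.4 CPM (sgFoxp3) and 35.9 and 35.4 CPM (sgNC) at 3 h, against 28.4 and 28 CPM (sgFoxp3) and 28.9 and 28.4 CPM (sgNC) at 0 h. It rose by 0.61 ± 0.046 in sgFoxp3 cells and by 0.32 in sgNC cells, where the sign turned on the TPM scale. Atg7, the activating enzyme of both conjugation pathways, had 21.7 and 20.9 CPM (sgFoxp3) and 20.6 and 19.3 CPM (sgNC) at 3 h, against 16.3 and 15.6 CPM (sgFoxp3) and 13.6 and 14.6 CPM (sgNC) at 0 h. It rose by 0.41 in sgFoxp3 cells and by 0.50 ± 0.064 in sgNC cells, but neither passed on log2(TPM + 1), where the change was 0.19 in sgFoxp3 cells and 0.07 in sgNC cells (limma adjusted p = 0.61 for sgNC cells). Atg12, the ubiquitin-like protein joined to Atg5, changed by -0.42 in sgFoxp3 cells and -0.47 in sgNC cells. The largest adjusted p of those given in full was 6.92e-12 in sgFoxp3 cells and 1.1e-07 in sgNC cells.

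Wipi2 and Wipi1 bind the lipid made by the Becn1 complex, and Wipi2 recruits Atg16l1. Wipi2 had 64.1 and 62.6 CPM (sgFoxp3) and 60.9 and 60.0 CPM (sgNC) at 3 h, against 109.7 and 108 CPM (sgFoxp3) and 154 and 157 CPM (sgNC) at 0 h. It changed by -0.78 ± 0.037 in sgFoxp3 cells and -1.36 ± 0.038 in sgNC cells, so that the groups differed at 0 h and lay close together at 3 h. Wipi1 was rare at 3 h, with 17 and 42 counts in sgFoxp3 cells and 51 and 31 counts in sgNC cells. In CPM it had 0.347 and 0.511 CPM (sgFoxp3) and 1.13 and 0.732 CPM (sgNC) at 3 h, against 8.15 and 7.51 CPM (sgFoxp3) and 8.22 and 8.71 CPM (sgNC) at 0 h. Its log2 change was -4.12 ± 0.16 in sgFoxp3 cells and -3.17 ± 0.15 in sgNC cells, the largest falls of the 34 genes, and the largest adjusted p of the WIPI pair was 5.8e-16 in sgFoxp3 cells and 1.15e-15 in sgNC cells.

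**Figure D2:**
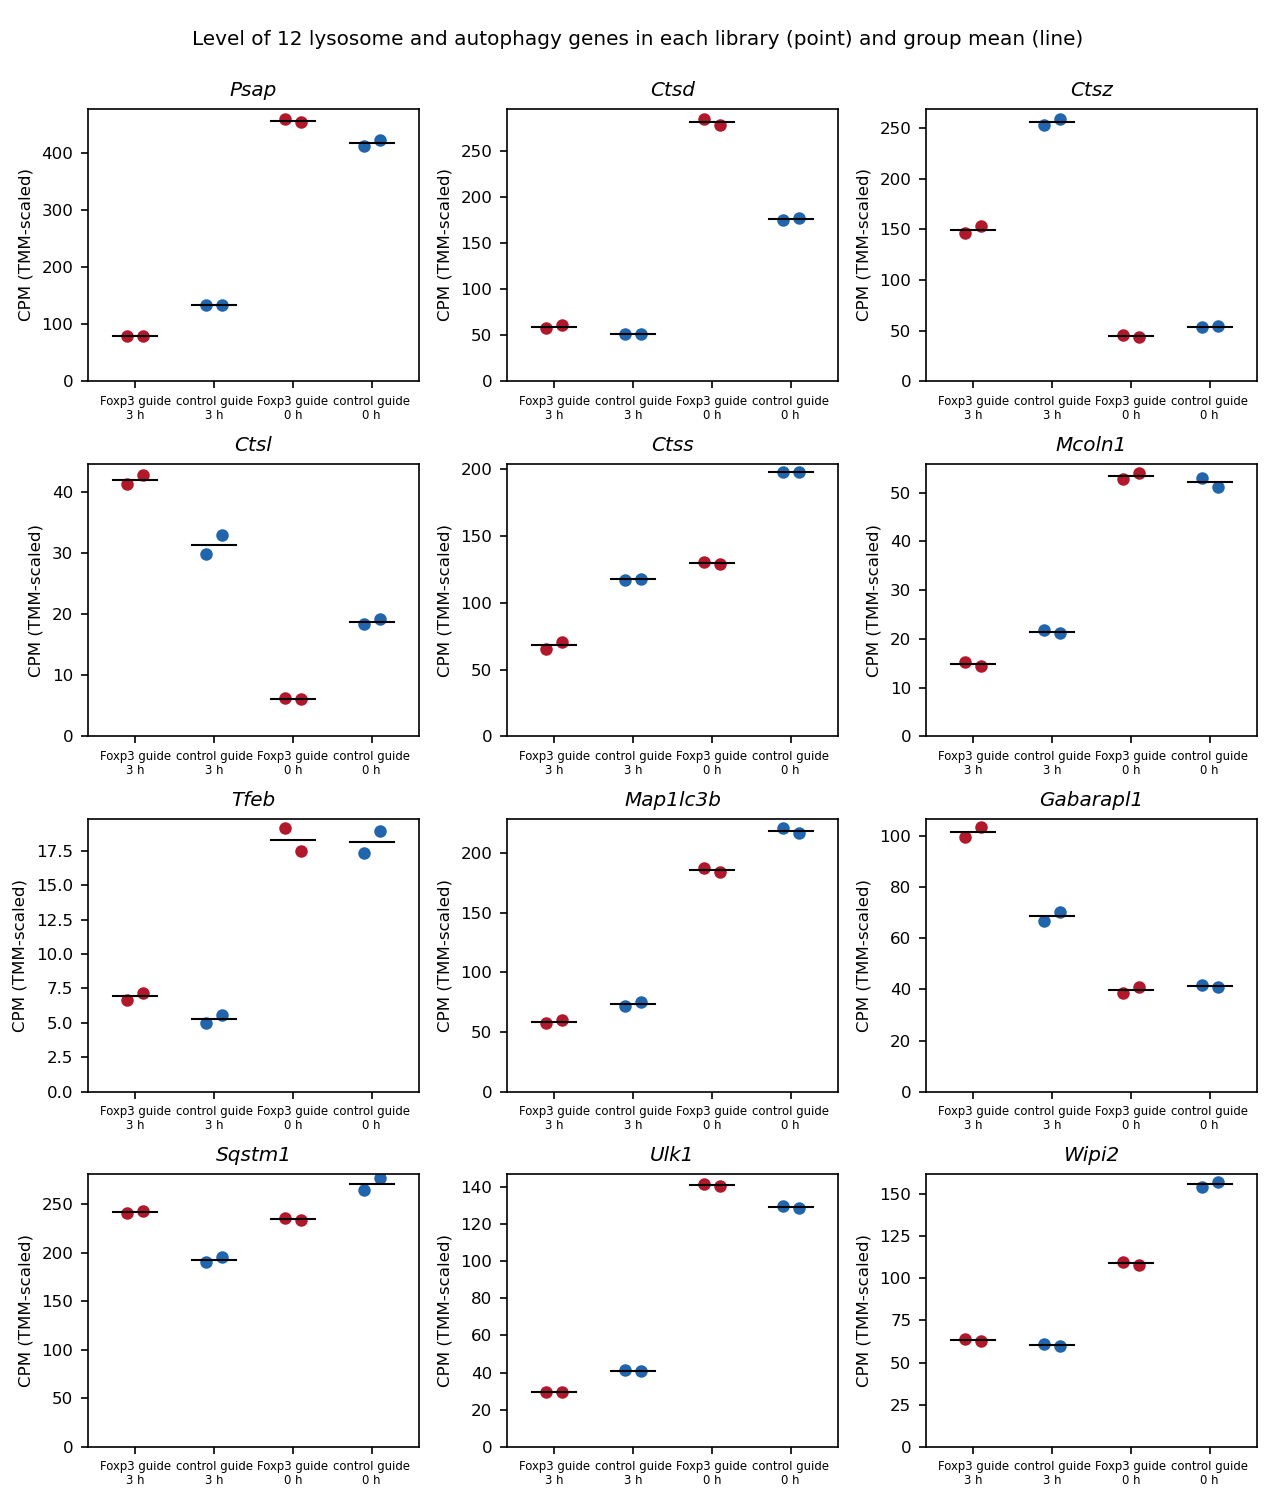
Level (TMM-scaled CPM, y axis from 0) of 12 of the 34 genes in each of the 8 libraries; points are libraries, lines are group means of 2, red is sgFoxp3 (Foxp3 guide) and blue sgNC (control guide), at 3 h and 0 h. Psap, Ctsd, Ctss, Mcoln1, Tfeb, Map1lc3b, Ulk1 and Wipi2 sit lower at 3 h, and Ctsz, Ctsl and Gabarapl1 sit higher. Sqstm1 sits lower at 3 h in sgNC cells only, and Ctsl spans the guides in opposite orders at the 2 times.

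The rest of the pathway was read from 9 lists of 121 other genes, all tested. Of these, 41 rose and 74 fell in sgFoxp3 cells, and 40 rose and 71 fell in sgNC cells. These are 33.9% and 61.2% in sgFoxp3 cells, against 40.8% and 44.5% of all tested genes, and 33.1% and 58.7% in sgNC cells, against 40.9% and 40.9%. On log2(TPM + 1) 28 rose and 79 fell in sgFoxp3 cells, and 22 rose and 80 fell in sgNC cells. Most other hydrolases fell: 23 of 28 fell with each guide, 2 rose in sgFoxp3 cells and 3 in sgNC cells, with medians of -1.23 in sgFoxp3 cells and -1.05 in sgNC cells. Lgmn, the asparaginyl endopeptidase legumain, had the largest fall (-5.32 ± 0.086 in sgFoxp3 cells and -3.85 ± 0.096 in sgNC cells), and Gusb, beta-glucuronidase, the largest rise (1.2 ± 0.046 in sgFoxp3 cells and 1.01 ± 0.048 in sgNC cells). Most of the 15 other V-ATPase genes rose: 11 rose and 3 fell in sgFoxp3 cells and 10 rose and 3 fell in sgNC cells, led by the proton-carrying ring subunit Atp6v0c (1.13 ± 0.038 in sgFoxp3 cells and 1.10 ± 0.039 in sgNC cells). On the TPM scale those counts were 7 and 4 in sgFoxp3 cells and 4 and 5 in sgNC cells, and the sgNC median was -0.02 rather than 0.25. Of 12 other membrane proteins, 10 fell in sgFoxp3 cells and 9 in sgNC cells, and the largest called falls were those of the cystine exporter Ctns in sgFoxp3 cells (-3.55 ± 0.087) and the cation channel Tpcn1 in sgNC cells (-3.07 ± 0.059).

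Of the 6 enzyme-sorting genes, 4 rose with each guide, with M6pr, a receptor that carries new hydrolases to the lysosome, at 3.03 ± 0.042 in sgFoxp3 cells and 2.83 ± 0.042 in sgNC cells. Of 10 other initiation genes, 8 fell in sgFoxp3 cells and 9 in sgNC cells, led by the Ulk1 scaffold Atg13 (-1.94 ± 0.047 in sgFoxp3 cells and -2.12 ± 0.050 in sgNC cells). In the 12 other conjugation and membrane-supply genes, 5 rose and 6 fell with each guide, and the WIPI relative Wdr45 fell most (-3.26 ± 0.058 in sgFoxp3 cells and -2.94 ± 0.061 in sgNC cells). Wdr45b went the other way and rose (0.90 ± 0.045 in sgFoxp3 cells and 0.92 ± 0.049 in sgNC cells). Among 9 other receptors, 7 fell in sgFoxp3 cells and 5 in sgNC cells, led by Calcoco1, a receptor for parts of the endoplasmic reticulum (-4.47 ± 0.061 in sgFoxp3 cells and -3.28 ± 0.053 in sgNC cells). Genes of fusion with the lysosome (7 of 12 fell in sgFoxp3 cells and 8 in sgNC cells) and of nutrient sensing at its surface (of 17, 8 rose and 8 fell in sgFoxp3 cells, and 9 rose and 7 fell in sgNC cells) were mixed. In the last list Fnip2, a partner of folliculin, rose most (2.88 ± 0.076 in sgFoxp3 cells and 2.61 ± 0.084 in sgNC cells) and Mitf, a relative of Tfeb, fell most (-2.68 ± 0.23 in sgFoxp3 cells and -2.05 ± 0.27 in sgNC cells).

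Many of the 34 genes differed between the guides, mostly by little and in both directions. At 3 h 13 were higher and 13 lower in sgFoxp3 cells, and at 0 h 13 were higher and 12 lower (edgeR). These shares lay near the background: 38.2% higher and 38.2% lower at 3 h, against 30.7% and 30.8% of all tested genes, and 38.2% higher and 35.3% lower at 0 h, against 34.2% and 29.1%. The median log2 change of the members was 0.05 at 3 h and -0.01 at 0 h, beside -0.01 at 3 h and 0.02 at 0 h over all genes. The counts moved with the scaling. The log2(TPM + 1) scale put the median of all genes at -0.12 at 3 h and -0.15 at 0 h, and there 1 member was higher at 3 h, and 3 were higher and 22 lower at 0 h. On that scale 27.4% of all calls were higher at 3 h and 27.9% at 0 h, rather than 49.9% and 54.0%. Combinations of calls at the 2 times were counted for the members only, with no matching share of all tested genes. Of 34 members, 6 were lower at both times (Ctss, Ctsz, Lamp1, Map1lc3b, Npc1 and Tfe3), 5 were higher at both (Becn1, Ctsd, Gabarapl2, Hexa and Lamp2), 13 passed at 1 time only and Ctsb and Map1lc3a at neither. On log2(TPM + 1) the 6 kept their sign at both times, while Becn1 turned at both times, Lamp2 at 0 h and Gabarapl2 at 3 h. Ctsd, Hexa and Lamp2 did not pass at 3 h on that scale (0.02, 0.10 and 0.01), so none of the 5 was called higher at both times there. The other 8 passed in opposite directions at the 2 times (Atg16l1, Atp6v0d1, Ctsl, Npc2, Psap, Sqstm1, Ulk1 and Ulk2). In 6 of these 8 the change at 1 of the times turned sign on log2(TPM + 1): Psap, Atp6v0d1, Ulk1 and Ulk2 at 0 h, and Npc2 and Atg16l1 at 3 h. Ctsl and Sqstm1 kept their signs there but did not pass at 3 h (0.06 and 0.09), so none of the 8 passed in opposite directions on that scale.

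At 3 h 7 members passed with an absolute log2 change of at least 0.5, a cut that was not counted over all tested genes. Ctss had 65.5 and 70.8 CPM in sgFoxp3 cells, against 117 and 118 CPM in sgNC cells (-0.78 ± 0.040, adjusted p = 1.72e-14). Ctsz had 147 and 153 CPM in sgFoxp3 cells, against 253 and 258 CPM in sgNC cells (-0.77 ± 0.037, adjusted p = 4.09e-15). Psap had 79.8 and 79.2 CPM in sgFoxp3 cells, against 134 and 134 CPM in sgNC cells (-0.75 ± 0.039, adjusted p = 2.22e-14). In both sgFoxp3 libraries these 3 were lower, Ctss by 1.72-fold, Ctsz by 1.71-fold and Psap by 1.69-fold. Mcoln1 had 15.2 and 14.5 CPM in sgFoxp3 cells, against 21.8 and 21.2 CPM in sgNC cells (-0.54 ± 0.056, adjusted p = 1.05e-08). Npc1 had 46.6 and 44.7 CPM in sgFoxp3 cells, against 67 and 62.4 CPM in sgNC cells (-0.51 ± 0.046, adjusted p = 8.68e-10). Gabarapl1 was the 1 of the 7 that was higher in sgFoxp3 cells, at 99.7 and 104 CPM in sgFoxp3 cells, against 66.8 and 70.4 CPM in sgNC cells (0.57 ± 0.044, adjusted p = 4.46e-11). Wipi1 was lower in sgFoxp3 cells, 0.347 and 0.511 CPM, against 1.13 and 0.732 CPM in sgNC cells (-1.06 ± 0.25, adjusted p = 6.74e-04), but rested on few counts. Without sgNC replicate 1 at 3 h the change in Wipi1 was -0.70 (adjusted p = 0.0609). The remaining 19 members that passed at 3 h changed by less than 0.5, from Ulk1 (-0.47) to Ctsl (0.42). For Ctsl the 3 h groups overlapped on the TPM scale (45.6 and 50.8 TPM in sgFoxp3 cells, 44.2 and 48 TPM in sgNC cells).

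At 0 h 5 members passed with an absolute log2 change of at least 0.5, again a cut not counted over all tested genes. Ctsl had 6.34 and 6.08 CPM in sgFoxp3 cells, against 18.4 and 19.2 CPM in sgNC cells, 3.03-fold lower (-1.60 ± 0.068, adjusted p = 3.21e-16). This was the largest guide effect among the 34 genes at either time. Ctss had 131 and 129 CPM in sgFoxp3 cells, against 197 and 197 CPM in sgNC cells (-0.60 ± 0.038, adjusted p = 8.51e-13). Npc1 had 109 and 109 CPM in sgFoxp3 cells, against 156 and 167 CPM in sgNC cells (-0.56 ± 0.041, adjusted p = 1.6e-11). Wipi2 had 109.7 and 108 CPM in sgFoxp3 cells, against 154 and 157 CPM in sgNC cells (-0.52 ± 0.036, adjusted p = 5.99e-12). All 4 were lower in both sgFoxp3 libraries. Ctsd was higher, with 285 and 279 CPM in sgFoxp3 cells, against 176 and 178 CPM in sgNC cells (0.68 ± 0.037, adjusted p = 4.84e-14). The remaining 20 members that passed at 0 h changed by less than 0.5, from Lamp1 (-0.29) to Hexa (0.44). Of these 20, 9 turned sign on log2(TPM + 1), the largest of them Gla (0.25): Lamp2, Gla, Psap, Atp6v0d1, Atp6v1h, Ulk1, Ulk2, Becn1 and Atg7.

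**Figure D3:**
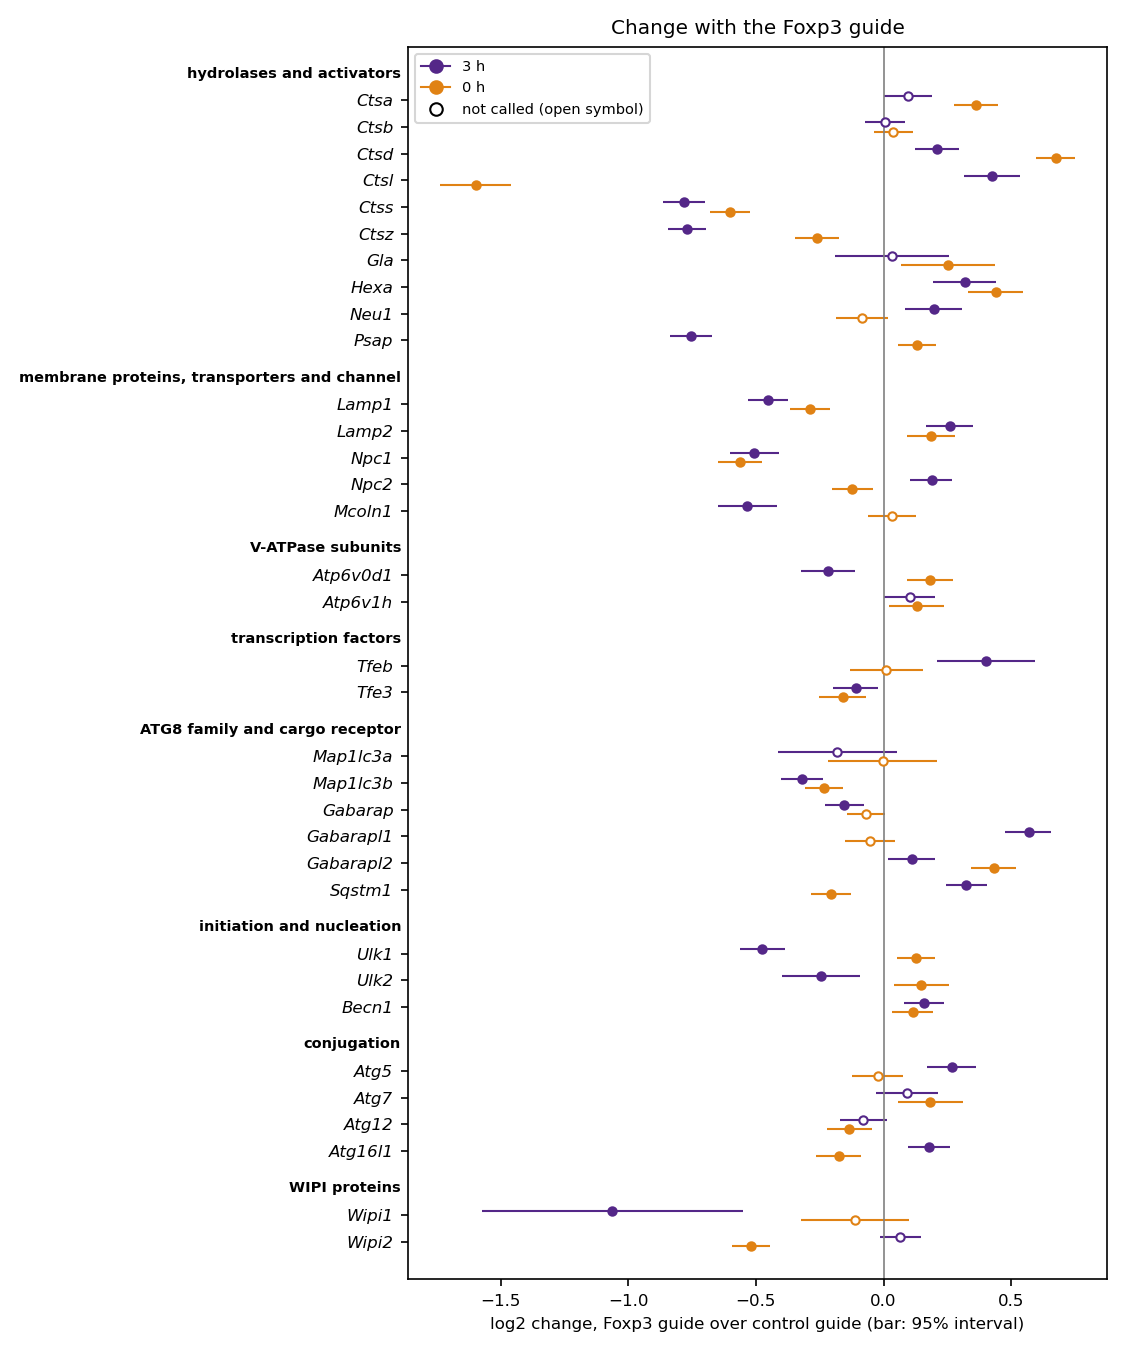
Log2 change, sgFoxp3 cells over sgNC cells (x axis) for each of the 34 genes, by role, at 3 h (purple) and 0 h (orange); bars are 95% intervals and open symbols did not pass the test. Most points lie within 0.5 of 0; Ctsl at 0 h (-1.60) and Wipi1 at 3 h (-1.06, on few counts) lie farthest out.

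Among the 121 other genes of the pathway, 26 were higher and 58 lower in sgFoxp3 cells at 3 h, and 36 were higher and 48 lower at 0 h. At 3 h these are 21.5% and 47.9%, against 30.7% and 30.8% of all tested genes, and at 0 h 29.8% and 39.7%, against 34.2% and 29.1%. The counts at 0 h moved with the scaling, to 30 higher and 59 lower under RLE, and on log2(TPM + 1) 5 were higher and 80 lower at 3 h and 3 higher and 81 lower at 0 h. Atp6v0a1, a membrane subunit of the V-ATPase, was lower at both times (-1.27 ± 0.097 at 3 h and -2.04 ± 0.064 at 0 h), as were the Rag GTPase gene Rragd (-1.21 ± 0.044 at 3 h and -1.39 ± 0.054 at 0 h) and the lysosomal membrane protein gene Laptm4b (-2.03 ± 0.13 at 3 h and -1.57 ± 0.10 at 0 h). The sorting receptor Sort1 also passed at both times (-0.87 ± 0.35 at 3 h and -1.04 ± 0.43 at 0 h), but on 10 to 28 counts per library, and it passed at neither time on log2(TPM + 1). At 0 h Sgsh, which degrades heparan sulfate, had the largest positive change of the 121 (1.24 ± 0.050), with 83.9 and 79.9 CPM in sgFoxp3 cells, against 34.5 and 35.1 CPM in sgNC cells. Calcoco1 was lower in sgFoxp3 cells, with log2 changes of -1.80 ± 0.077 at 3 h and -0.61 ± 0.042 at 0 h.

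Whether stimulation acted alike with the 2 guides was tested as the difference between the TCR effects, the log2 TCR change in sgFoxp3 cells minus that in sgNC cells. Of the 34 genes, 21 passed: 9 with a positive and 12 with a negative difference (26.5% and 35.3%, against 17.8% and 27.0% of all tested genes, edgeR). The median difference was -0.09 over the members and -0.09 over all genes. Among these 21, sgFoxp3 cells had a larger fall for 10 genes and a smaller one for 4 (Neu1, Npc2, Tfeb and Wipi2), and the rise was larger for 4 (Atg16l1, Atg5, Ctsl and Gabarapl1) and smaller for Ctsz, while Lamp1 and Sqstm1 had TCR changes of opposite sign. This split was not counted over all tested genes, so it is not shown to be particular to the members. On log2(TPM + 1) 7 members rather than 12 had a negative difference. Over all calls, 39.7% were positive, against 51.5% on log2(TPM + 1).

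Ctsl differed most: its log2 TCR change was 2.76 in sgFoxp3 cells and 0.74 in sgNC cells, a difference of 2.02 ± 0.086 (adjusted p = 2.5e-15). Psap fell more in sgFoxp3 cells (-2.52, against -1.64 in sgNC cells), a difference of -0.89 ± 0.054 (adjusted p = 1.51e-12). Ctsd did likewise (-2.25, against -1.78 in sgNC cells), a difference of -0.47 ± 0.056 (adjusted p = 2.03e-07). For Psap the guides lay close at 0 h and apart at 3 h, and for Ctsd the reverse. Ctsz rose less in sgFoxp3 cells (1.74, against 2.25 in sgNC cells), a difference of -0.51 ± 0.055 (adjusted p = 4.22e-08). The falls of Mcoln1 (-0.57 ± 0.072, adjusted p = 5.04e-07), Atp6v0d1 (-0.40 ± 0.068, adjusted p = 2.86e-05) and Ulk1 (-0.60 ± 0.056, adjusted p = 3.23e-09) were also larger in sgFoxp3 cells.

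Gabarapl1 rose more in sgFoxp3 cells (1.35, against 0.73 in sgNC cells), a difference of 0.62 ± 0.064 (adjusted p = 2.12e-08). Wipi2 fell less in sgFoxp3 cells (-0.78, against -1.36 in sgNC cells), a difference of 0.58 ± 0.053 (adjusted p = 2.62e-09). Sqstm1 did not pass in sgFoxp3 cells (241 and 243 CPM at 3 h, against 236 and 234 CPM at 0 h) and fell in sgNC cells (190.0 and 196 CPM at 3 h, against 265 and 277 CPM at 0 h). Its difference was 0.53 ± 0.054 (adjusted p = 1.51e-08), and on the TPM scale it was lower at 3 h with each guide. Wipi1 fell more in sgFoxp3 cells, by a difference of -0.95 ± 0.27 (adjusted p = 0.00547). That value rested on few counts: it was -0.60 (adjusted p = 0.145) without sgNC replicate 1 at 3 h, and -0.07 (limma adjusted p = 0.73) on log2(TPM + 1). The other 10 that passed, Lamp1, Ctsa, Ctss, Neu1, Npc2, Tfeb, Gabarapl2, Ulk2, Atg5 and Atg16l1, differed by -0.39 to 0.39. The 13 that did not pass included Npc1, with an interval of -0.07 to 0.18, and Map1lc3b, with -0.20 to 0.03.

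**Figure D4:**
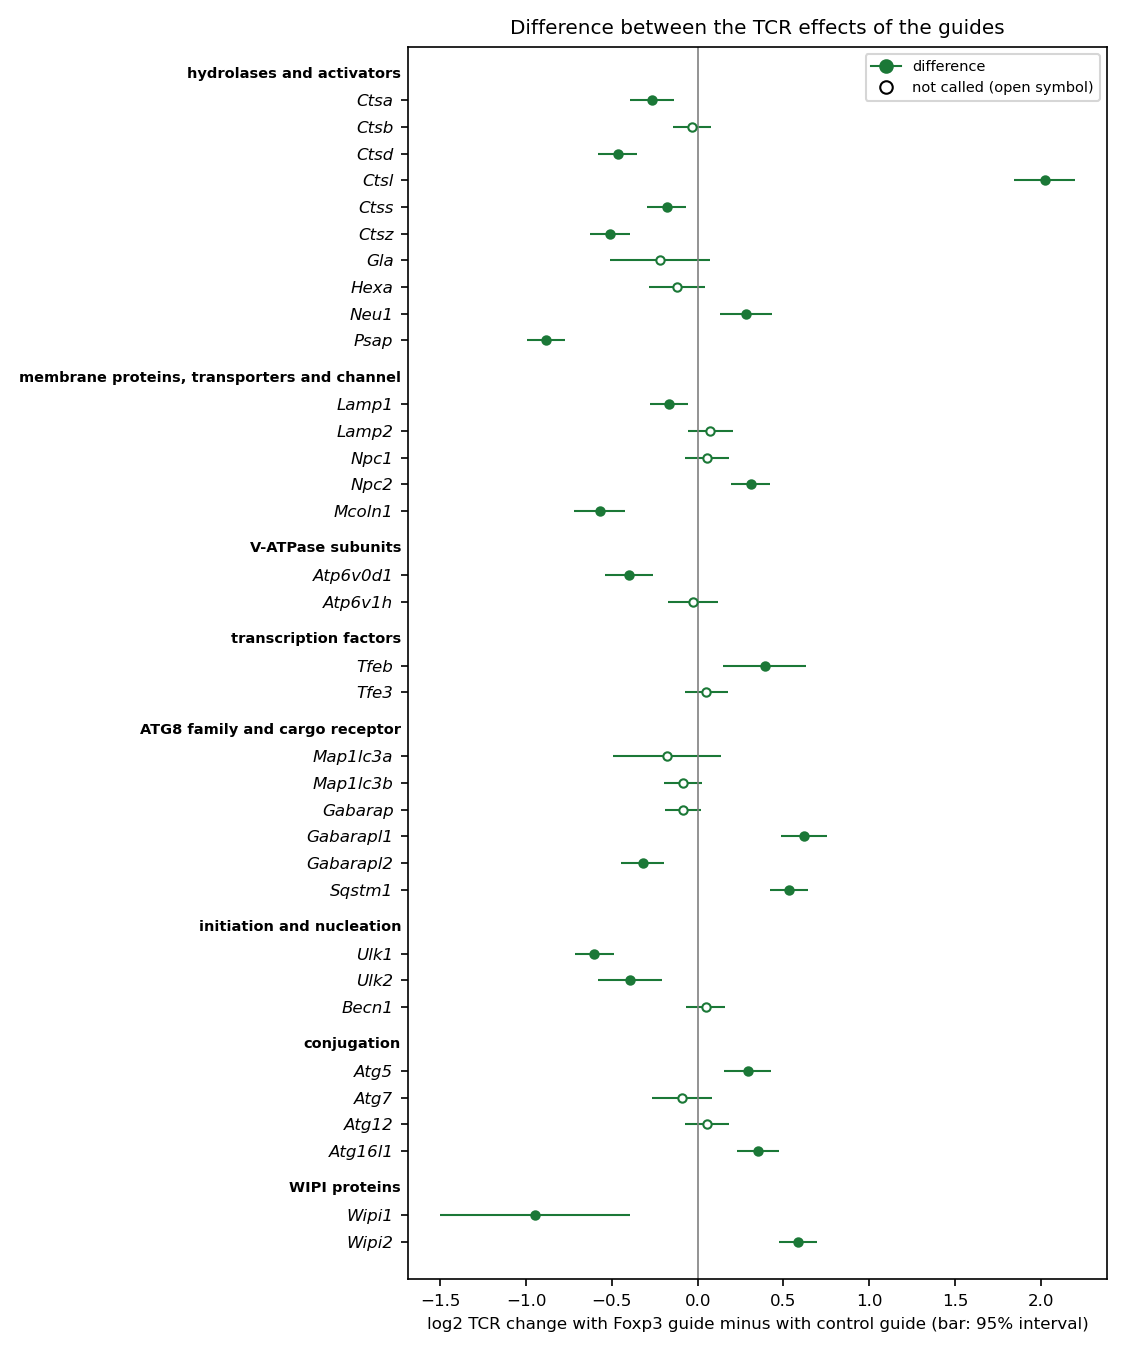
Difference between the log2 TCR changes of the guides (sgFoxp3 minus sgNC cells, x axis) for each of the 34 genes, by role; bars are 95% intervals and open symbols did not pass the test. Ctsl (2.02) lies far to the right of the others, and Psap (-0.89) and Wipi1 (-0.95, on few counts) lie farthest left.

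Of the 121 other genes, 24 had a positive and 41 a negative difference (19.8% and 33.9%, against 17.8% and 27.0% of all tested genes). Under RLE 33 were positive and 32 negative, and on log2(TPM + 1) 24 and 16. The heparan sulfate enzyme gene Sgsh had the most negative, -1.84 ± 0.088 (adjusted p = 1.86e-14), with 8.31 and 7.27 CPM in sgFoxp3 cells and 11.9 and 11.6 CPM in sgNC cells at 3 h. The receptor gene Calcoco1 also had a negative difference (-1.19 ± 0.088), and the V-ATPase gene Atp6v0a1 a positive one (0.77 ± 0.12). Among other hydrolases 3 differences were positive and 12 negative, and among other V-ATPase genes 3 were positive and 2 negative.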

How the data were processed

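RNA of 8 libraries of cultured mouse nTreg cells was sequenced with a stranded protocol, per the labels. The submitters' processing notes name Trim Galore 0.6.3, STAR 2.7.9a and RSEM 1.3.1, and the builds mm10 and GRCm38, with no role or order. The annotation release was not given in the sources used here, and 55180 of the 55665 gene IDs matched GENCODE M21 with their version. The authors deposited expected counts per gene, which RSEM estimates by sharing reads between genes, and TPM values per gene, which are corrected for length and sum to a fixed total in each library.

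Expected counts were rounded to whole numbers. All 8 libraries entered 1 model with 4 group means in edgeR 4.0.16 (R 4.3.3): TMM scaling, filterByExpr (16642 genes kept), robust quasi-likelihood fits and Benjamini-Hochberg adjustment over all tested genes, with calls at an adjusted p below 0.05. SE was the absolute log2 change divided by the square root of F, and intervals are 95%. The model had 4 residual degrees of freedom and a biological coefficient of variation of 3.41%. The contrasts were Foxp3 guide over control guide at 3 h and at 0 h, 3 h over 0 h with each guide, and the difference between these TCR effects. The guide contrasts share libraries with the TCR contrasts, so their values are given side by side only. Deposited TPM served for levels across genes and, in limma 3.58.1 on log2(TPM + 1), as an alternative scale; such changes understate those of low genes.

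Members were given full values where they passed with an absolute log2 change of at least 0.5, or 0.4 for the difference; of the 9 wider lists, genes with the largest called rise or fall were named. The members and lists were chosen with earlier results of these data known. Alternatives were RLE and upper-quartile scaling, DESeq2 1.42.0, TPM with pseudocounts of 1 and 0.1, other filters, the replicate number as a block, only the 4 libraries compared, thinning to the smallest library, and leaving out each library. Promoter sequences are from RefSeq (GRCm38.p6).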

Additional observations from a re-analysis of the deposited data

Results flagged for a closer look

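For 11 of the 34 genes the TCR effect differed between the guides by at least 0.4 on the log2 scale, in a test of the difference itself (edgeR's quasi-likelihood F-test, Benjamini-Hochberg adjusted, 2 libraries per group). This size cut was not counted over all tested genes. At any size, 26.5% of members passed with a positive and 35.3% with a negative difference, against 17.8% and 27.0% of all tested genes. Values are the TCR change in sgFoxp3 cells minus that in sgNC cells. Among hydrolases and activators they were 2.02 ± 0.086 for Ctsl (adjusted p = 2.5e-15), -0.89 ± 0.054 for Psap (1.51e-12), -0.51 ± 0.055 for Ctsz (4.22e-08) and -0.47 ± 0.056 for Ctsd (2.03e-07). For the channel Mcoln1 the difference was -0.57 ± 0.072 (5.04e-07), and for the V-ATPase subunit Atp6v0d1 -0.40 ± 0.068 (2.86e-05). Among autophagy genes they were 0.62 ± 0.064 for Gabarapl1 (2.12e-08), 0.58 ± 0.053 for Wipi2 (2.62e-09), 0.53 ± 0.054 for Sqstm1 (1.51e-08), -0.60 ± 0.056 for Ulk1 (3.23e-09) and -0.95 ± 0.27 for Wipi1 (0.00547). The Wipi1 value is the 1 of the 11 that lost its call under an alternative. Groups of 2 libraries are too small for a search for outlying libraries.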

How the results depend on the processing

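The counts of members called depended on the scaling for the guide effects more than for the TCR effects. For the guide effect at 0 h, members higher numbered 13, but 6 under RLE, 4 under upper-quartile scaling, 5 with DESeq2, 3 on log2(TPM + 1), 3 on log2(TPM + 0.1) and 2 on log2(TPM + 1) with no filter. Members lower at 0 h numbered 12, but 22, 21 and 20 on those 3 TPM scales. For the guide effect at 3 h, members higher numbered 13, but 1, 1 and 1 on the TPM scales. For the TCR effect in sgNC cells, members higher numbered 11, but 6, 6 and 6 on the TPM scales. For the difference between the TCR effects, members lower numbered 12, but 7, 7 and 7 on the TPM scales. The cause was not tested. The other counts stayed within 1.5 times under all alternatives that gave a value, among them 22 falls in sgFoxp3 cells and 23 in sgNC cells; the fit of only the 4 libraries compared could give no value for the difference. Leaving out 1 library at a time gave 10 to 13 higher and 10 to 13 lower for the guide effect at 0 h, 11 to 14 and 10 to 13 at 3 h, 10 to 10 higher and 22 to 22 lower for the TCR effect in sgFoxp3 cells, 10 to 11 and 22 to 23 in sgNC cells, and 8 to 9 and 10 to 12 for the difference; the lone library left in a group is assumed to vary like the other groups. With the replicate block the counts were 13 higher and 12 lower at 0 h, 13 and 13 at 3 h, 10 and 22 for the TCR effect in sgFoxp3 cells, 11 and 23 in sgNC cells, and 9 and 12 for the difference. The labels do not state whether equal replicate numbers mark a shared experiment. Same-numbered libraries of 2 groups deviated with correlations of -0.224 to 0.383 over 8847 genes, which do not settle it. The value of 0.383 was between sgFoxp3 and sgNC cells at 3 h. Over 73 values of single genes, 1364 comparisons with an alternative kept direction and call, 8 lost the call and 0 reversed. The 8 were Wipi1 at 3 h (-0.70, adjusted p = 0.0609) and in the difference (-0.60, adjusted p = 0.145) without sgNC replicate 1 at 3 h, Wipi1 in the difference on the 3 TPM scales (-0.07, -0.64 and -0.07), and Atg7 in sgNC cells on those scales (0.07, 0.07 and 0.07). Depth limited Wipi1, with 17 to 51 counts per library at 3 h; with 2 libraries per group, small differences that missed the threshold are not shown to be absent.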

Other observations

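Cd63, a tetraspanin of late endosomes and lysosomes, had the largest TCR rise among the 121 other pathway genes, 5.09 ± 0.26 on the log2 scale in sgFoxp3 cells and 3.45 ± 0.26 in sgNC cells (adjusted p = 3.24e-15 and 7.03e-12, edgeR). In counts it had 152 and 238 in sgFoxp3 cells and 99.8 and 116 in sgNC cells at 3 h, against 8 and 4 in sgFoxp3 cells and 10 and 11 in sgNC cells at 0 h. The cathepsin gene Ctsh had the largest negative guide effect of the other hydrolases, -3.10 ± 0.56 at 3 h and -1.73 ± 0.55 at 0 h. It rested on 5 and 2 counts in sgFoxp3 cells and 24 and 18 in sgNC cells at 3 h, and on 9 and 3 counts in sgFoxp3 cells and 14 and 13 in sgNC cells at 0 h.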
